A study of Mus musculus with 22 samples.

Results

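The genes described here encode the extracellular metalloproteinases of the mouse eye and their inhibitors: the matrix metalloproteinases (Mmp), the ADAMTS proteases (a disintegrin and metalloproteinase with thrombospondin motifs, Adamts) and the tissue inhibitors of metalloproteinases (Timp). They were taken by symbol and biotype, not by any measured value: every protein-coding row named Mmp, Adamts or Timp followed by a number. The rule found 45 genes (22 Mmp, 19 Adamts and 4 Timp) among 22046 protein-coding rows and 54532 rows in all, the same 45 in both deposited tables. Mmp1a matched the name and was left out, because the tables class it as a polymorphic pseudogene.

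RNA was sequenced in bulk from retina and choroid dissected as one tissue, after laser burns that start choroidal neovascularisation (CNV), a model of neovascular age-related macular degeneration. Of the 16 wild-type libraries, 4 were controls without CNV, and there were 4 for each time after the laser (day 3, day 7 and day 14). A further 6 libraries, all at day 3 after the laser, came from Rag2-/- mice (Rag2 KO, 3 libraries), in which T and B lymphocytes do not develop, and from Rag2-/-γc-/- mice (Rag2 gc KO, 3 libraries), which also lack the common gamma chain and with it natural killer (NK) cells. Both Rag2 groups carry the Rag2 deletion and both were lasered, so their comparison addresses what the gamma chain adds and has no unlasered reference. The protocol names adult C57BL/6J mice, the series text calls the controls age-matched, and an exact age is not given in the sources used here. Whether each library came from a separate animal is not stated in the labels, so the tests measure the spread between libraries, which may be partly technical.

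Library totals were 15033983 to 16848254 counts in the wild-type table and 27227847 to 30315086 in the Rag2 table. Il2rg, which encodes the common gamma chain, had 0 counts in all 3 Rag2 gc KO libraries and 28 to 62 in the Rag2 KO libraries. Rag2 itself had at most 4 counts in any library, wild type included, and so checks nothing here. Transcripts of lens and ocular surface, tissues outside the dissection, differed between wild-type libraries: 10 lens genes summed to 32.2 to 390 counts scaled to library size (CPM) in control, 2121 to 6453 CPM at day 3 and 10255 CPM in day 14 replicate 1, and 8 corneal and conjunctival genes reached 30771 CPM in day 3 replicate 3. Day 14 replicate 1 also had the lowest sum of 5 rod genes, 12576 CPM against 46700 to 53465 CPM in control. Control replicate 4 is titled as without CNV and tagged as lasered; it was kept as a control. In bulk RNA, fewer cells of a type and less RNA per cell cannot be told apart.

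MMPs are zinc proteases made as inactive precursors and switched on by removal of a propeptide. Between them they cut collagens, elastin, laminins, proteoglycans and many secreted signals, and vessels that grow through a basement membrane depend on such cuts. ADAMTS proteases are secreted relatives with narrower tasks, such as cutting aggrecan and versican, trimming procollagens or cutting von Willebrand factor. TIMPs bind the active site of these enzymes; Timp3 is held in the matrix, is made by the retinal pigment epithelium (RPE), and its human counterpart is mutated in Sorsby fundus dystrophy, an inherited disease with CNV.

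The 45 genes lie on 17 chromosomes, with 1 large cluster. On chromosome 9, 9 Mmp genes (Mmp13, Mmp12, Mmp1b, Mmp3, Mmp10, Mmp8, Mmp27, Mmp20 and Mmp7) occupy positions 7272514 to 7699585 of the mm10 build. Smaller neighbourhoods hold Adamts15 with Adamts8 (chromosome 9, 30899155 to 30963838) and Adamts1 with Adamts5 (chromosome 16, 85793827 to 85901828). Promoters were read from RefSeq on GRCm38.p6, the assembly of mm10, as the 250 bases before the RefSeq start nearest to the deposited gene start; 29 of the 45 genes had one within 500 bases. AP-1 sites (TGANTCA, searched on both strands), which bind Fos and Jun proteins and are long known from collagenase and stromelysin promoters, were found in 6 of the 29 (20.7%), against 6.75% of all 32851 promoters of that length. All 6 belong to the chromosome 9 cluster. They are shown with the site in capitals and 12 bases on each side, on the gene's own strand, because they are the AP-1 matches among the promoters searched and all fall in 1 cluster; the genes did not share 1 pattern of expression (3 of the 6, Mmp3, Mmp10 and Mmp13, were highest in day 3 replicate 3):
Mmp1b chr9:7388101-7388131 (minus strand): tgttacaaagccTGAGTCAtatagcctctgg
Mmp3 chr9:7445764-7445794 (plus strand): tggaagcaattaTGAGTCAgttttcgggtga
Mmp7 chr9:7692015-7692045 (plus strand): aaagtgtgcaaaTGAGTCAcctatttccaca
Mmp10 chr9:7502267-7502297 (plus strand): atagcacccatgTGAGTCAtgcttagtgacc
Mmp13 chr9:7272467-7272497 (plus strand): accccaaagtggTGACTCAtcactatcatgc
Mmp20 chr9:7628124-7628154 (plus strand): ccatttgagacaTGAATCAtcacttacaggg
The sites begin 35 bases (Mmp13) to 95 bases (Mmp20) before the start. A match describes the letters only, and no binding was measured.

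At day 3, 4 members passed the test for a rise. Their 250-base promoters are shown in full, with AP-1 sites and the 6-letter PEA3 motif of Ets factors (AGGAAG, searched on both strands) in capitals; no match of one motif overlaps one of the other in these promoters. PEA3 letters were present in 13 of the 29 promoters (44.8%), against 29.5% of all promoters of that length.
Mmp3 chr9:7445572-7445821 (plus strand): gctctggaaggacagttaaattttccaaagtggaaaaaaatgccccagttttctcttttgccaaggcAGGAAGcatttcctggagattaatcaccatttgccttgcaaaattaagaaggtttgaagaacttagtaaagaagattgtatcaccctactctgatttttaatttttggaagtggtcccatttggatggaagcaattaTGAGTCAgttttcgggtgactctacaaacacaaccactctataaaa
Mmp12 chr9:7344147-7344396 (plus strand): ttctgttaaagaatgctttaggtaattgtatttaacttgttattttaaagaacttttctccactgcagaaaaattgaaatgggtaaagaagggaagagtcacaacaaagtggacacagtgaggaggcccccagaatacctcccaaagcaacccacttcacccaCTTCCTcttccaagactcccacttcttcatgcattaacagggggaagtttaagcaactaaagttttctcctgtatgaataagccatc
Adamts1 chr16:85803114-85803363 (minus strand): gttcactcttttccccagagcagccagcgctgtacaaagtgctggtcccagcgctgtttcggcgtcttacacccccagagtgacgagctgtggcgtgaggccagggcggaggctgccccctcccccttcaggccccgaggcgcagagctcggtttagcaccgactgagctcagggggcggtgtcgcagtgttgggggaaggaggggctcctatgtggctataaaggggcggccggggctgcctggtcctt
Timp1 chrX:20869916-20870165 (plus strand): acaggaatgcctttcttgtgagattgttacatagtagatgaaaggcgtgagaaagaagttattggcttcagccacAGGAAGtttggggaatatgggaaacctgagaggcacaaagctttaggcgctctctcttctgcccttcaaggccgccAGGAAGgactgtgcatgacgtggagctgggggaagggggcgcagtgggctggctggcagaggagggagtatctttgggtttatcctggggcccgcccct
The Mmp3 promoter held 1 AP-1 site and 1 PEA3 match, the Timp1 promoter 2 PEA3 matches, the Mmp12 promoter 1 PEA3 match on the other strand, and the Adamts1 promoter neither motif.

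Counts were tested with edgeR's quasi-likelihood method, with Benjamini-Hochberg adjustment over all genes tested and a threshold of 0.05 on the adjusted p. A filter on low counts, at about 0.622 CPM in the wild-type table, left 34 of the 45 genes there. Of these 34, 29 were above that level in all 4 controls; Mmp12, Adamts4, Adamts12, Timp1 and Timp4 were not, and entered through other libraries. The 11 genes that failed the filter were Mmp1b, Mmp7, Mmp8, Mmp10, Mmp13, Mmp20, Mmp21, Mmp25, Mmp27, Adamts13 and Adamts14.

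At day 3 the macrophage elastase Mmp12, the stromelysin Mmp3, the aggrecanase Adamts1 and the inhibitor Timp1 rose above control by edgeR, and no member fell past the threshold. That is 4 of 34 genes tested (11.8%), where 14.7% of all 18657 genes tested passed, 6.97% as higher and 7.77% as lower. At an unadjusted p under 0.05 there were 19 members, 14 higher and 5 lower. The share of all genes at that unadjusted p is not given, here or for the later comparisons, so such counts have no background beside them. DESeq2 called 13, 8 higher and 5 lower (Mmp9, Mmp16, Mmp24, Adamts3 and Timp3), and 25.7% of all genes. In 15 members every day 3 library lay above every control, and in 5 every one lay below; over all genes such separation held for 17.4% upward and 22.8% downward. The median log2 fold change of the 34 was 0.62, and that of all genes 0.0088. In the authors' deposited table, whose tool is not given in the sources used here, 20 members were up and 6 down at an adjusted p under 0.05, among 43 with a p-value. Its share of all genes is not given.

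Mmp12 degrades elastin and is made mainly by macrophages. Its level in the 4 controls was 0.742, 0.328, 1.33 and 0.91 CPM, and at day 3 it was 16.5, 13.9, 15.7 and 22.6 CPM. No day 3 library came near the highest control. The log2 fold change was 4.36 (SE 0.60, edgeR adjusted p = 0.00334), a 20.5-fold rise, and it passed without any single one of the 8 libraries (largest adjusted p = 0.0193). Macrophage markers moved with it: 6 of 8 listed genes passed as higher at day 3 (among them Cd68, Lyz2 and Ccr2), and their sum was 59.4 to 91.4 CPM in control and 112 to 300 CPM at day 3. The part of cell number in the Mmp12 rise was not tested.

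Timp1 inhibits most secreted MMPs and is an early gene of injury and inflammation. Controls had 0.99, 0.525, 1.46 and 1.69 CPM, and day 3 libraries 8.94, 5.01, 18.6 and 16.4 CPM. The groups did not overlap, and the day 3 libraries spread more than 3-fold among themselves. The rise was 3.38 on the log2 scale (SE 0.54, edgeR adjusted p = 0.0063), or 10.4-fold, and passed without any single library (largest adjusted p = 0.0285). Reactive glia markers were also up, with 5 of 5 genes passing and sums of 230 to 412 CPM in control against 1068 to 2184 CPM at day 3; their part in the Timp1 rise was not tested. Timp1 lies inside the span of Syn1, on the opposite strand, which had a mean of 1355 counts, and since the strand setting of the counting is not given, reads from the overlap cannot be told apart.

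Mmp3, stromelysin 1, cuts proteoglycans, laminin and fibronectin and activates other MMPs. It was the least even of the 4. Controls had 1.67, 1.25, 4.19 and 2.53 CPM, and day 3 libraries 16.2, 2.53, 77 and 16.4 CPM. Replicate 2 at day 3 was no higher than a control, and replicate 3 was more than 4 times any other library of the time course. The log2 fold change was 3.53 (SE 0.92, edgeR adjusted p = 0.0281). Without day 3 replicate 3 it was 2.27 and did not pass (adjusted p = 0.11), and it also failed without any one of the controls (adjusted p 0.064 to 0.0778).

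Of the 9 genes of the chromosome 9 cluster, 4 had their highest wild-type level in day 3 replicate 3, Mmp3 among them. Mmp12, Mmp8 and Mmp7 were highest in day 3 replicate 4, Mmp1b in day 7 replicate 2, and Mmp20 had no counts. Mmp13 (interstitial collagenase of rodents), which failed the filter, had its highest level of the wild-type libraries there, 1.92 CPM, against 0.13 to 0.318 CPM in control. Mmp27 (1.06 CPM) and Mmp10 (stromelysin 2, 0.331 CPM) also peaked in that library. So did Mmp14 at 93 CPM and Mmp15 at 62.2 CPM, which lie on other chromosomes. The same library had the highest sum of corneal and conjunctival markers, 30771 CPM, and of 11 neutrophil markers, 262 CPM against 3.67 to 18 CPM in control (3 of the 4 that could be tested passed as higher at day 3). Whether these contents bear on the protease levels was not tested.

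Adamts1 cuts aggrecan and versican and binds VEGF. Controls had 21.6, 18.8, 22.8 and 25 CPM, and day 3 libraries 37.9, 39.1, 43.9 and 41.5 CPM. All day 3 libraries were above all controls, with little spread in either group. The rise was small, 0.88 on the log2 scale (SE 0.26, edgeR adjusted p = 0.0396), and the call was lost when any 1 of the 8 libraries was left out (adjusted p 0.0527 to 0.108), while the log2 fold change stayed at 0.81 to 0.95. With lens and corneal scores as covariates it was 0.37 (edgeR adjusted p = 0.444). Lens marker sums did not overlap between control (32.2 to 390 CPM) and day 3 (2121 to 6453 CPM), so this fit cannot separate lens content from day 3.

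**Figure D1:**
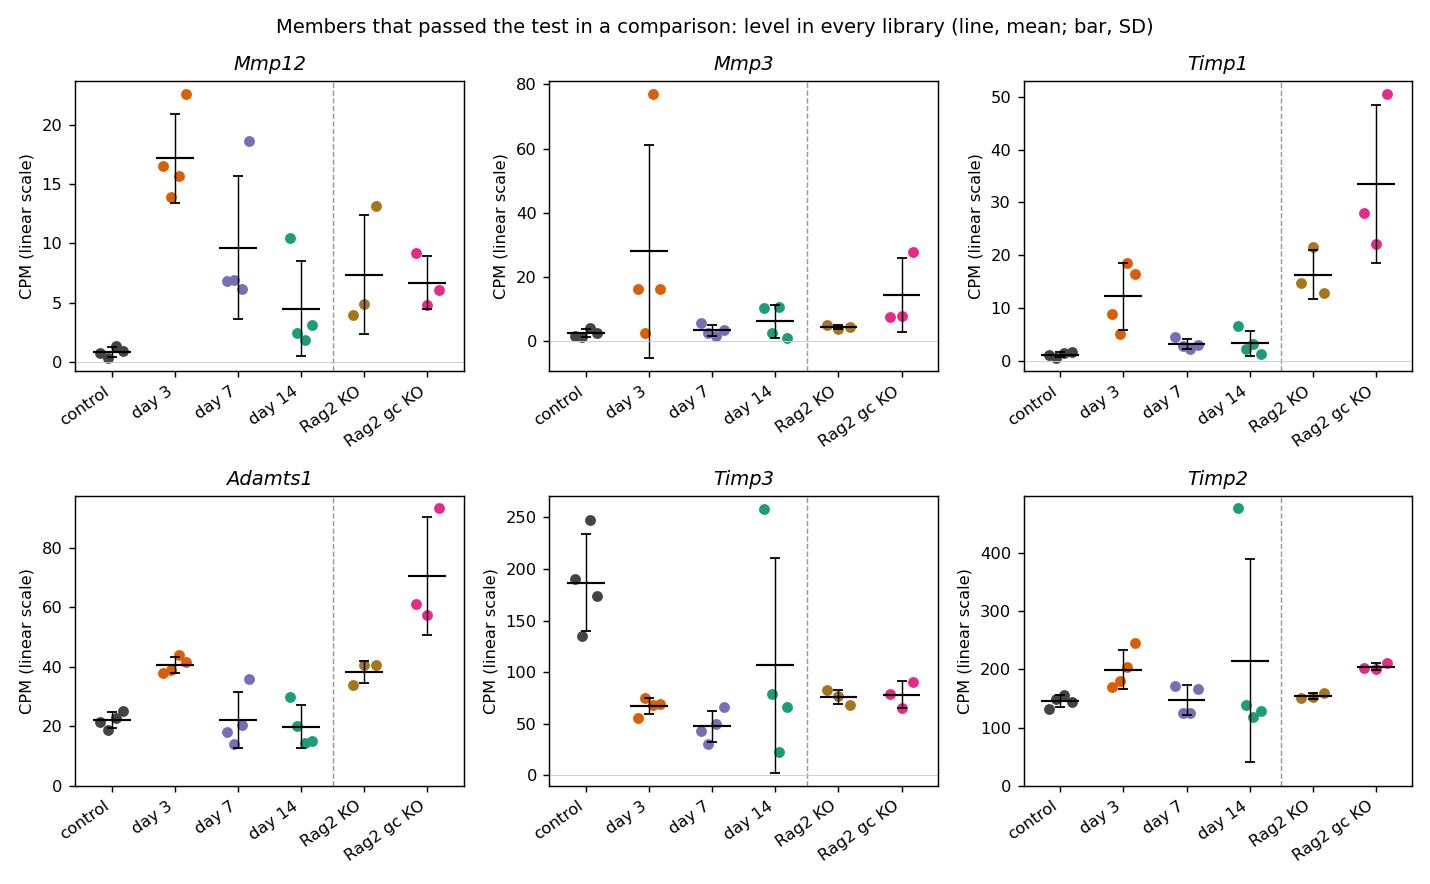
CPM in every library (points) for the 6 members that passed the test in any comparison, with the group mean (line) and SD (bar); the dashed line separates the wild-type and Rag2 tables, which were scaled separately. Mmp12 at day 3 (13.9 to 22.6 CPM) lies above all controls (at most 1.33 CPM), Mmp3 at day 3 spans 2.53 to 77 CPM, and Timp2 in Rag2 gc KO (200 to 211 CPM) lies above Rag2 KO (151 to 160 CPM).

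Gelatinases cut denatured collagen and the collagen IV of basement membranes, and both have been linked to CNV in mice. The 2 moved in opposite directions at day 3 and neither passed. Mmp2 had 13.9, 17.7, 17.2 and 18.1 CPM in control and 33.7, 21, 32.8 and 36.3 CPM at day 3 (log2 fold change 0.89, SE 0.29, edgeR adjusted p = 0.0521). Mmp9 had 14.4, 18, 15.2 and 19.6 CPM in control and 9.61, 7, 8.21 and 7.73 CPM at day 3 (log2 fold change -1.04, SE 0.38, edgeR adjusted p = 0.0714). Every day 3 library was above every control for Mmp2 and below every control for Mmp9. Fibroblast markers were higher as well: all 6 had an unadjusted p under 0.05, Col1a1 and Col1a2 passed, and their sum was 150 to 245 CPM in control and 275 to 724 CPM at day 3. Their part in the values of Mmp2, Mmp3 and Mmp14 was not tested. The authors' deposited table lists Mmp9 at -1.02 with an adjusted p of 2.97e-08. Day 3 replicate 3, day 7 replicate 2 and day 14 replicate 1, each high in lens or corneal transcripts, were also left out together. Day 7 replicate 1, with more corneal and conjunctival transcripts (24419 CPM) than day 7 replicate 2 (22129 CPM), was kept. Lens-rich libraries were kept too: day 3 replicates 1 (6453 CPM) and 2 (5380 CPM) and day 7 replicate 4 (5544 CPM). Of those left out, day 3 replicate 3 had 2289 CPM of lens markers and day 7 replicate 2 had 6.31 CPM. This run therefore does not remove lens content. Mmp9 at day 3 was then at -1.03 and passed (edgeR adjusted p = 0.00292). With lens and corneal scores as covariates Mmp9 was at -0.11 (edgeR adjusted p = 0.93), a fit that cannot separate lens content from day 3.

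Membrane-type MMPs act at the cell surface. Mmp14, which activates pro-Mmp2 together with Timp2, had 30.2, 23.7, 24 and 22.4 CPM in control and 46.4, 34.5, 93 and 50.6 CPM at day 3 (log2 fold change 1.16, SE 0.41, edgeR adjusted p = 0.0614). Mmp16 and Mmp24, both known from neural tissue, were lower in every day 3 library than in any control. Mmp24 had 16.1 to 23.5 CPM in control and 6.29 to 12.1 CPM at day 3, and Mmp16 had 3.62 to 4.87 and 1.13 to 2.69 CPM. Both had a log2 fold change of -0.92, with adjusted p = 0.0684 and 0.0667 by edgeR. Mmp15 (0.55) and the GPI-anchored Mmp17 (-0.55) overlapped control, and Mmp25 failed the filter with at most 0.433 CPM. The rod marker sum was also lower, 23368 to 36869 CPM at day 3 against 46700 to 53465 CPM in control, and its part in the lower values of Mmp9, Mmp16 and Mmp24 was not tested.

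**Figure D2:**
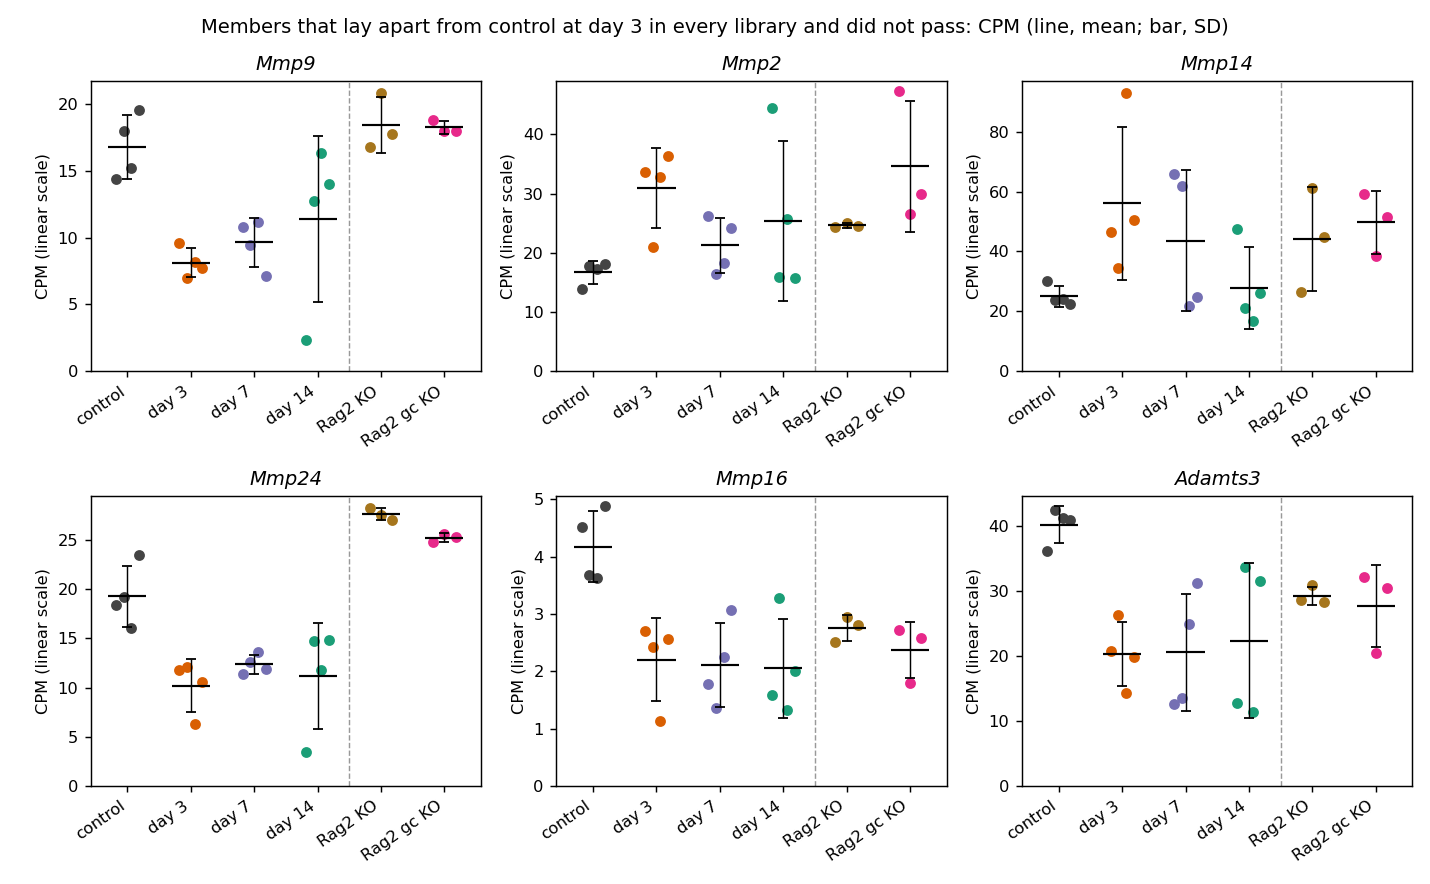
CPM in every library (points) with group mean (line) and SD (bar) for 6 members whose day 3 libraries all lay above or all lay below the 4 controls without passing the test. Mmp9, Mmp24, Mmp16 and Adamts3 are lower at day 3 and Mmp2 and Mmp14 higher, and Mmp9 in day 14 replicate 1 is 2.31 CPM.

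Among the remaining MMPs tested, Mmp11 (stromelysin 3), Mmp19, Mmp23 and Mmp28 had positive log2 fold changes at day 3, 0.63 to 1.40, and none passed. Mmp11, Mmp19, Mmp24, Adamts7 and Timp4 also overlap a gene on the opposite strand (Chchd10, Tmem198b, BC029722, Tbc1d2b and Syn2). The collagenases were near the limit of detection. Mmp8, neutrophil collagenase, had 0 counts in all 4 controls, which allows up to 0.199 CPM at 3 counts, and 0.245, 0.181, 0.53 and 0.595 CPM at day 3. Mmp1b and Mmp7 (matrilysin) had at most 1 and 2 counts in any wild-type library. Mmp20, the enamel protease, had 0 counts in all 22 libraries, an upper limit of 0.099 to 0.199 CPM. With no filter on low counts, Mmp8 and Adamts14 joined Mmp12, Adamts1 and Timp1 among the members called at day 3, and Mmp3 did not pass (edgeR adjusted p = 0.0662). Mmp21 stayed at or below 0.368 CPM.

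The other proteoglycan-cutting ADAMTS genes gave no call. Adamts4, aggrecanase 1, had 1.18, 7.22, 3.49 and 0.585 CPM in control and 8.57, 24.5, 15.2 and 22.8 CPM at day 3 (log2 fold change 2.51, SE 1.05, edgeR adjusted p = 0.101). The day 3 libraries were all above the controls, which themselves spread more than 10-fold. Adamts5, aggrecanase 2, was level: 26.2 to 31 CPM in control and 28.4 to 36.5 CPM at day 3 (log2 fold change 0.20, SE 0.24). Adamts8, Adamts9, Adamts15 and Adamts20 lay between -0.19 and 0.68 on the log2 scale.

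The procollagen peptidase Adamts3, which also matures VEGF-C, was lower in every day 3 library than in any control: 36.1 to 42.5 CPM in control and 14.3 to 26.3 CPM at day 3 (log2 fold change -0.99, SE 0.36, edgeR adjusted p = 0.069). Adamts2, which trims the fibrillar procollagens, was at 0.30 (SE 0.40). Adamts14 failed the filter with at most 0.728 CPM. Adamts13, which cuts von Willebrand factor, also failed it, with at most 0.735 CPM. Of the 8 others, 7 had positive values and none passed. Adamts18 had the largest, 1.61 (SE 0.84, edgeR adjusted p = 0.17), and Adamts10, a microfibril-associated member, was the most abundant at 41.8 to 47.8 CPM in control and 51.6 to 68.6 CPM at day 3.

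Timp2, Timp3 and Timp4 gave no call at day 3 by edgeR. Timp3 had 190, 135, 248 and 173 CPM in control and 55.7, 74.6, 68.3 and 69.6 CPM at day 3. Even the lowest control was above the highest day 3 library (log2 fold change -1.48, SE 0.50, edgeR adjusted p = 0.0564). Without the 3 libraries left out together above, a run that kept other lens-rich libraries, Timp3 was at -1.47 and passed (edgeR adjusted p = 0.0178). It was also called lower by DESeq2, with scaling by library totals and with only day 3 and control in the fit. That last fit called Timp2 and Timp4 higher. Timp3 passed as lower with the lens and corneal covariates too, a fit that cannot separate lens content from day 3. Timp2, which both inhibits Mmp2 and helps to activate it, was at 0.46 (SE 0.35), and Timp4 at 0.99 (SE 0.43, adjusted p = 0.109), from levels under 1 CPM in control. The sum of 5 RPE markers was lower too, 1835 to 2627 CPM in control and 1029 to 1650 CPM at day 3. Of the 5 genes, 3 passed as lower (Rpe65, Lrat and Rgr), and 1 had a positive log2 fold change (0.56) without passing. Their part in the lower Timp3 values was not tested.

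**Figure D3:**
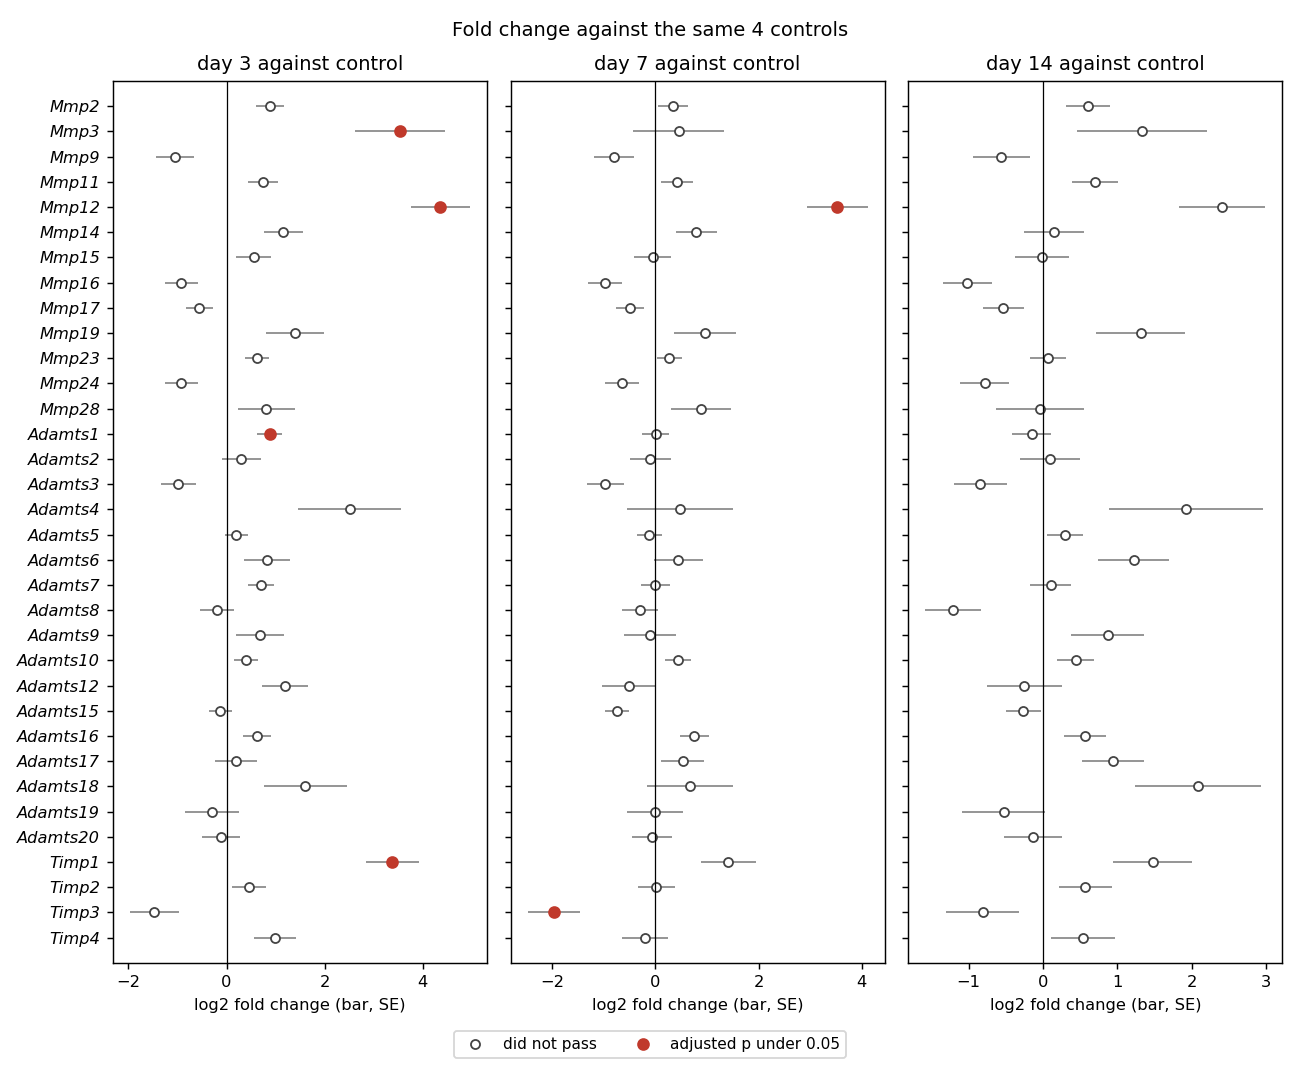
Log2 fold change against control (points, with SE bars) of the 34 members tested, for day 3, day 7 and day 14; the 3 panels share the same 4 controls and each has its own axis. Filled points passed at an adjusted p under 0.05: Mmp3, Mmp12, Adamts1 and Timp1 at day 3, Mmp12 and Timp3 at day 7, and no member at day 14.

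By day 7, Mmp12 was still raised and Timp3 had fallen. These were 2 of 34 members (5.88%), against 10.5% of all genes tested, 3.62% as higher and 6.9% as lower. Another 5 members had an unadjusted p under 0.05 without passing, which makes 7 in all. Upward separation from control was seen in 5 members and downward in 7, against 11.3% and 18.4% of all genes, and the median log2 fold change was 0.0026 (all genes 0.028). The authors' deposited table lists 5 members up and 7 down among 41 with a p-value, its share of all genes again not given.

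Mmp12 at day 7 was 6.83, 6.89, 6.16 and 18.7 CPM, above every control in each library. Replicate 4 was well apart from the other 3. The log2 fold change was 3.53 (SE 0.59, edgeR adjusted p = 0.00733), or 11.5-fold, and it passed without any single library (largest adjusted p = 0.0339). Macrophage marker sums were 98.5 to 197 CPM at day 7, all above the 59.4 to 91.4 CPM of control, though none of the 8 genes passed by edgeR (6 at an unadjusted p under 0.05).

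Timp3 at day 7 was 43.2, 30.6, 50.1 and 66.5 CPM, against 135 to 248 CPM in control. Here too the groups were far apart. It fell by 1.97 on the log2 scale (SE 0.51, edgeR adjusted p = 0.0295), or 3.92-fold, and the call was lost without any one control, day 7 replicate 1 or day 7 replicate 2 (adjusted p 0.0564 to 0.101). The sum of 5 RPE markers at day 7 was 2229 to 2366 CPM in 3 libraries and 1002 CPM in replicate 4. These markers went both ways: 2 were lower and 1 higher at an unadjusted p under 0.05, Lrat passed as lower, and the median log2 fold change was -0.58. Their part in the fall of Timp3 was not tested. Timp3 lies inside the span of Syn3, on the opposite strand, which had a mean of 80.9 counts.

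The other members raised at day 3 did not pass at day 7 by edgeR. Mmp3 was 1.48 to 5.63 CPM and Adamts1 was 14 to 35.8 CPM, both overlapping control. Timp1 was 2.19 to 4.49 CPM, above every control (log2 fold change 1.42, edgeR adjusted p = 0.0876). It was called higher by DESeq2, with only day 7 and control in the fit, and without the 3 libraries left out together above. Mmp9 (7.12 to 11.2 CPM, log2 fold change -0.80), Mmp16 (-0.98), Mmp17 (-0.49), Mmp24 (-0.64), Adamts3 (-0.97) and Adamts15 (-0.74, the smallest adjusted p of these, 0.0576) were below every control in all 4 libraries without passing.

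By day 14 no member passed in edgeR, where 0.273% of all genes did (0.0322% higher and 0.241% lower). At an unadjusted p under 0.05 there were 11 (7 higher and 4 lower), and DESeq2 called 3 (Mmp12 and Timp1 higher, Mmp16 lower). The share of all genes is not given for the unadjusted count, and that for DESeq2 is given with the processing alternatives below. Only Mmp12 and Adamts16 lay above every control in all 4 libraries and 5 members below (6.76% and 12.8% of all genes). Mmp12 was 10.5, 2.46, 1.87 and 3.11 CPM, above every control in all 4 libraries (log2 fold change 2.41, SE 0.58, edgeR adjusted p = 0.0688). Without replicate 1 it was 1.59 (adjusted p = 0.0935). Timp1 was 6.57, 2.23, 3.08 and 1.23 CPM and overlapped control (1.48, SE 0.53, adjusted p = 0.124).

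Day 14 replicate 1 set the spread of many members. Timp2 was 476 CPM in it and 118 to 138 CPM in the other 3, Timp3 was 258 against 23.1 to 78.4 CPM, Adamts4 was 38.6 against 0.362 to 6.39 CPM, and Adamts18 was 166 against 3.81 to 35.5 CPM. Mmp9 went the other way, at 2.31 against 12.8 to 16.4 CPM. This is the library with 10255 CPM of lens transcripts and the lowest rod sum, and the part of that content was not tested. Without this library, day 3 replicate 3 and day 7 replicate 2, Timp3 passed as lower at day 14 (log2 fold change -1.72, edgeR adjusted p = 0.0431). Adamts8, Mmp16, Mmp17, Mmp24 and Adamts3 were below every control in all 4 libraries (log2 fold change -1.21 to -0.53).

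Day 7 and day 14 were also compared with day 3 directly. No member passed in either, by edgeR; 0% and 0.00536% of all genes did. At an unadjusted p under 0.05, 7 members were lower at day 7 and 9 at day 14, and none was higher. The share of all genes at that unadjusted p is not given. DESeq2 called 2 (Mmp3 and Timp1) and 3 (Adamts1, Mmp12 and Timp1), all lower. Its shares of all genes are given with the processing alternatives below. In 8 members every day 7 library was below every day 3 library, against 2.94% of all genes (2.8% upward, where no member was); these were Adamts1, Adamts4, Adamts7, Adamts9, Adamts12, Adamts15, Timp1 and Timp4. Timp1 had the log2 fold change -1.96 (SE 0.50, adjusted p = 0.429). For day 14 against day 3, 6 members lay entirely below (1.45% of all genes) and none above (1.4%), and Mmp12 was at -1.95 (SE 0.52, adjusted p = 0.349). Without day 14 replicate 1, 5 members passed, and 6.82% of all genes: Mmp9 was higher, and Mmp12 (-2.79, adjusted p = 0.00536), Timp1 (-2.47, adjusted p = 0.0121), Adamts1 and Timp2 were lower.

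Levels of different genes can be set side by side only per length, in the authors' deposited FPKM (fragments per kilobase of gene, scaled to library size). In control Timp2 was the most abundant member at 36.9 FPKM (SD 2.95, n = 4), followed by Timp3 at 22.7 (SD 5.88), Adamts10 at 8.29 (SD 0.52) and Adamts3 at 7.34 (SD 0.56). Timp2 and Timp3 did not overlap each other or the next genes, while Adamts10 and Adamts3 overlapped (7.53 to 8.73 and 6.55 to 7.81 FPKM). Mmp2, Mmp9, Mmp15, Mmp14, Adamts1 and Mmp24 followed between 4.08 and 4.91 FPKM with overlapping ranges. At day 3, Timp2 was still first at 51.4 FPKM (SD 8.85); Mmp3 (15.6, SD 18.6) and Timp1 (13.8, SD 7.21) came next, ranges overlapping, from 1.33 and 1.30 FPKM in control. The place of Mmp3 rested on replicate 3: without it the Mmp3 mean was 6.51 FPKM (SD 4.41, n = 3), place 8 in the order, and Adamts10 (11.6) and Timp1 (11.4) followed Timp2. Mmp12, despite the largest fold change, reached only 2.38 FPKM at day 3.

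**Figure D4:**
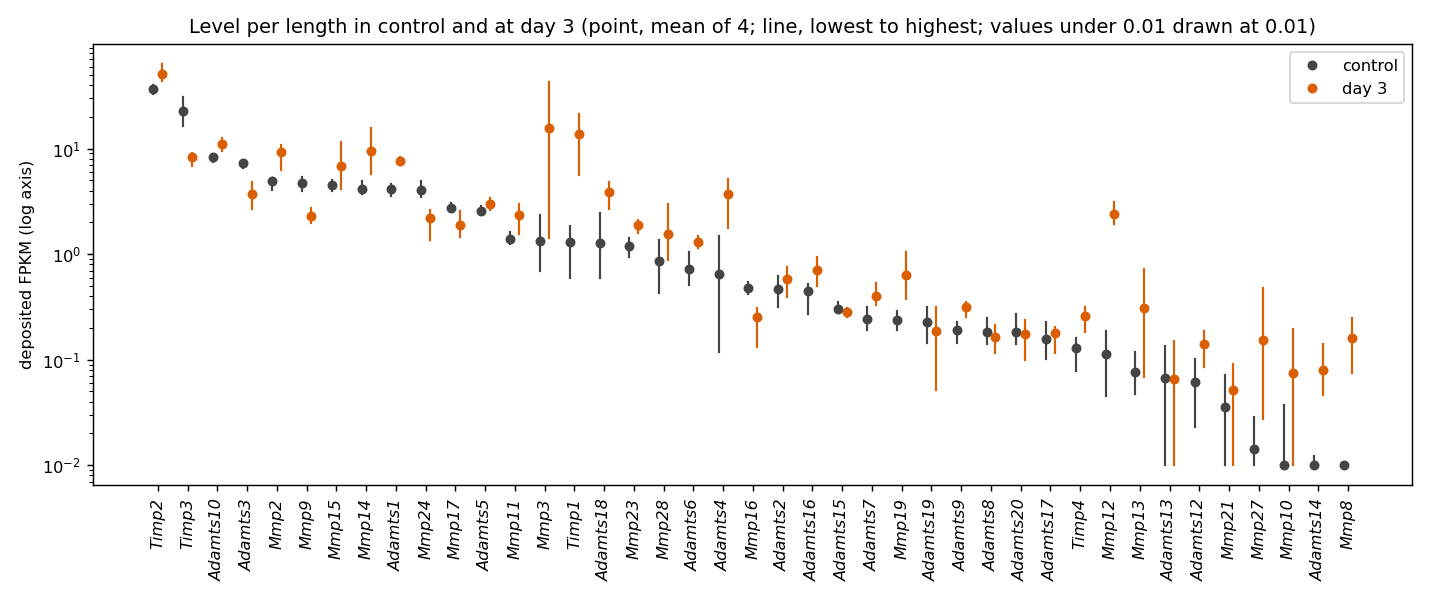
Deposited FPKM on a log axis for the 41 members with a mean of at least 0.05 FPKM in control or at day 3 (points, means of 4 libraries; lines, lowest to highest), in order of the control mean. Timp2 is highest in both groups (36.9 and 51.4 FPKM), and Timp1 moves from 1.30 to 13.8 FPKM at day 3; the day 3 mean of Mmp3 (15.6 FPKM) is 6.51 FPKM without replicate 3.

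Between the Rag2 genotypes, 36 members were tested. The 9 that failed the filter there were Mmp1b, Mmp7, Mmp10, Mmp20, Mmp21, Mmp25, Mmp27, Adamts13 and Adamts19. At day 3 after the laser, 1 of the 36 (2.78%) differed between the genotypes, Timp2, which was higher in Rag2 gc KO; 0.465% of all 18923 genes tested passed, 0.211% as higher and 0.254% as lower. At an unadjusted p under 0.05 there were 6 members, 4 higher and 2 lower. Ranges were separate upward in 5 and downward in 4 members, against 11.5% and 10.6% of all genes, and the median log2 fold change was 0.17 (all genes 0.0040).

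Timp2 was 151, 152 and 160 CPM in Rag2 KO and 202, 200 and 211 CPM in Rag2 gc KO. The replicates of each genotype were close together. The difference was 0.41 on the log2 scale (SE 0.061, edgeR adjusted p = 0.0311), 1.33-fold, and it did not pass when any 1 of the 6 libraries was left out (log2 fold change 0.38 to 0.42, adjusted p 0.0544 to 0.152).

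The members that rose at day 3 in wild type did not pass between the Rag2 genotypes by edgeR; DESeq2 called Adamts1 higher, beside Timp2 higher and Adamts10 lower (3.67% of all genes). Timp1 was 14.7, 21.5 and 12.8 CPM in Rag2 KO and 28, 22.2 and 50.5 CPM in Rag2 gc KO (log2 fold change 1.04, SE 0.38, edgeR adjusted p = 0.313). Adamts1 was 34, 40.5 and 40.5 against 61.1, 57.5 and 93.5 CPM (0.88, SE 0.20, adjusted p = 0.149). Mmp3 was 3.88 to 4.98 against 7.49 to 27.7 CPM (1.69, SE 0.59, adjusted p = 0.302). For these 3 every Rag2 gc KO library was above every Rag2 KO library. Mmp12 overlapped fully, at 3.99, 4.92 and 13.1 CPM against 9.21, 4.83 and 6.05 CPM (-0.14, SE 0.51, adjusted p = 0.928). That SE leaves room for sizeable differences in either direction. Macrophage markers summed to 160 to 206 CPM in Rag2 KO and 188 to 522 CPM in Rag2 gc KO, and none of the 8 genes passed by edgeR (6 at an unadjusted p under 0.05).

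Among the rest, Adamts10 was lower in Rag2 gc KO, with 30.2, 38.4 and 36.6 CPM against 26.1, 23.2 and 26.6 CPM (log2 fold change -0.47, SE 0.11, edgeR adjusted p = 0.115). Mmp17, Mmp24 and Adamts20 also lay entirely below, by 0.13 to 0.36 on the log2 scale, and Mmp2 entirely above (0.49, SE 0.21), none passing. Mmp9 (-0.01, SE 0.11), Mmp14 (0.17, SE 0.35) and Timp3 (0.05, SE 0.12) overlapped. Mmp8 and Mmp13, too low to test in wild type, were tested here and did not pass; Mmp13 was 0.232 to 1.1 CPM in Rag2 KO and 0.0354 to 0.41 CPM in Rag2 gc KO. Corneal and conjunctival markers were nearly absent from this table (1.13 to 7.03 CPM in sum). Reactive glia markers summed to 794 to 1104 CPM in Rag2 KO and 1148 to 2895 CPM in Rag2 gc KO, highest in the same replicate 3 as Timp1, Mmp3 and Adamts1, and their part in these values was not tested.

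**Figure D5:**
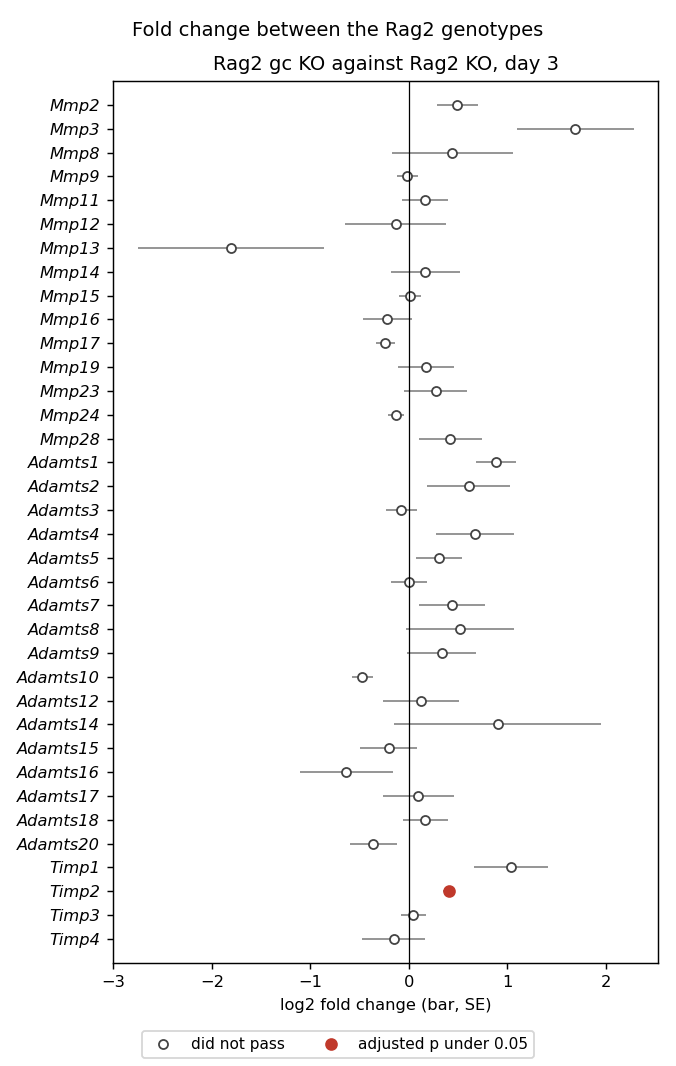
Log2 fold change of Rag2 gc KO against Rag2 KO at day 3 (points, with SE bars) for the 36 members tested. Only Timp2 is filled (adjusted p under 0.05), with an SE of 0.061, and Mmp3 (1.69), Timp1 (1.04) and Adamts1 (0.88) lie to the right with wider bars.

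Genes that act with the family were counted from 4 lists. Of 18 activators and inhibitors tested, 6 rose and 2 fell at day 3 (median log2 fold change 0.91; all genes 0.0088). That is 44.4% called, against 14.7% of all genes. Plat, the tissue plasminogen activator, rose by 1.45 (SE 0.22, edgeR adjusted p = 0.00527). Plaur, the urokinase receptor, rose by 2.40 and its ligand Plau, urokinase, by 2.11 (adjusted p = 0.0129 and 0.0314); plasmin made by these enzymes can activate pro-MMPs. Spock1 and Spock2, matrix proteoglycans known to modulate MMPs, were the 2 that fell.

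Of 11 ADAM genes, the membrane-bound shedding relatives, Adam8 rose (0.91) and Adam9 fell (-0.38) at day 3. Calls made up 18.2% of the ADAM list, 42.9% of the ADAMTS-like list and 18.2% of the substrates. Among all genes 14.7% were called, so the ADAM and substrate shares were near that of all genes. Of 7 ADAMTS-like genes, which have the ADAMTS ancillary domains and no protease domain, Adamtsl5 rose (0.62) and Adamtsl1 and Thsd4 fell (-0.55 and -0.53). Of 22 matrix substrates, Col3a1 (2.96, edgeR adjusted p = 0.0126), Col1a1 (2.28) and Col1a2, chains of fibrillar collagens, rose and Col2a1 fell (-0.52). At day 7, Col3a1 (2.24) and Adamtsl5 were higher and Spock1 and Adam9 lower. That was 4.55% to 14.3% of a list, against 10.5% of all genes. At day 14 none of the 4 lists had a call by edgeR (6, 1, 4 and 9 genes at an unadjusted p under 0.05, in the order activators, ADAM, ADAMTS-like and substrates). Between the Rag2 genotypes Col2a1 alone passed among the 4 lists, lower in Rag2 gc KO (-0.71, edgeR adjusted p = 0.0311). Of all genes, 0.465% passed there.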

How the data were processed

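The authors deposited 1 table per strain set with raw counts per gene and library, made with featureCounts 1.5.0-p3 on mm10 per the submitters' processing notes. Aligner, annotation release and strand setting: not given in the sources used here. Per the file headers, the tables also hold FPKM values, used here for order between genes only, and for wild type the authors' log2 fold changes and adjusted p-values against control, quoted by name. Totals were 15033983 to 16848254 counts (wild type) and 27227847 to 30315086 (Rag2).

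The members, the gene lists, tests and alternatives were chosen with earlier results of these data known. Counts were filtered (filterByExpr, minimum count 10, minimum total 15), scaled by TMM and tested with edgeR 4.0.16 (limma 3.58.1, R 4.3.3; quasi-likelihood, robust), with 1 mean per group and no covariate, fitted over the 16 libraries of the wild-type table or the 6 of the Rag2 table, and Benjamini-Hochberg adjustment over 18657 or 18923 genes. The SE is the log2 fold change over the square root of F. CPM carry the TMM factors. The tables were normalised separately, and no test crosses them. On simulated counts with 200 changed genes, 47% of changes of 1 and 87% of changes of 2 on the log2 scale were recovered at day 3, and 74% and 96% in the Rag2 comparison. Of the genes called there, 6.94% and 8.11% were unchanged ones. In the data themselves edgeR called 2749 genes at day 3. The adjusted threshold depends on how many genes change, so these rates need not hold for the data.

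Named are every member called in a comparison, a fixed list of key members and TIMPs, members that failed the filter with their highest value, and up to 3 called genes with the smallest p per related list; other members named were chosen after their values were seen. Alternatives were DESeq2 1.42.0, other scalings, no filter, a replicate block, lens and corneal covariates, left-out libraries and fits of 2 groups. Upper limits for a count of 0 are 3 counts of the library total and cover counting error only. Protein sequences were not used here. Of the 45 members, 29 had a usable promoter entry. Scripts in Python 3.11.15 with pandas 2.3.3 and numpy 2.4.6 did the rest.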

Additional observations from a re-analysis of the deposited data

Results flagged for a closer look

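Within the 4 libraries of a wild-type group, the highest or lowest value stood apart from the other 3 in 14 of 136 member and group pairs. Apart means that the gap divided by the range was above Dixon's limit for 4 values. About 1 in 20 would be flagged among independent, normally distributed values. The CPM were on a linear scale and the pairs share libraries, so that rate does not apply directly. Of the 14 flags, 8 were in day 14 replicate 1. In that library Mmp11 was high at 10.76 CPM (others 4.22 to 5.2 CPM), Mmp12 at 10.47 CPM (others 1.87 to 3.11 CPM), Adamts4 at 38.55 CPM, Adamts9 at 14.01 CPM (others 1.81 to 2.92 CPM), Adamts16 at 6.787 CPM (others 3.87 to 3.96 CPM) and Timp2 at 476.1 CPM. Adamts17 was also high there at 5.054 CPM (others 1.15 to 1.69 CPM), and Mmp17, the only low one, had 5.054 CPM as well (others 14.4 to 16.1 CPM). Lens markers took 10255 CPM of that library; their part in these values was not tested.

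The other flags fell in 5 libraries. Day 7 replicate 4 had 18.66 CPM of Mmp12, where the other 3 had 6.16 to 6.89 CPM. Day 14 replicate 2 was low in Adamts8 (0.1758 CPM, others 0.423 to 0.454 CPM) and in Adamts12 (0.2931 CPM, others 0.649 to 0.664 CPM). Adamts7 was low in day 14 replicate 4, at 0.9085 CPM, Adamts16 in control replicate 3, at 1.842 CPM, and Adamts17 in day 3 replicate 4, at 0.8919 CPM. Of 68 differences between a member's values at day 7 or day 14 and at day 3, none was singled out: no member passed the direct comparison by edgeR, and none lay wholly above control on one day and wholly below on the other.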

How the results depend on the processing

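Mmp12 at day 3 and day 7 and Timp1 at day 3 passed in all 8 alternatives other than leaving out 1 library, and in all 8 runs of that kind. The 8 alternatives include the covariate fit, which cannot separate lens content from day 3. Over these edgeR and DESeq2 fits, the largest adjusted p for Timp1 at day 3 was 0.0496, close to the threshold. For Mmp12 it was 0.0117 at day 3 and 0.016 at day 7. The counts of members called moved more. DESeq2 called 13 at day 3 (25.7% of all genes), 7 at day 7 (20.2%), 3 at day 14 (9.53%), 2 for day 7 against day 3 (0.338%), 3 for day 14 against day 3 (0.616%) and 3 between the Rag2 genotypes (3.67%). With only the 2 groups compared in the fit, 23 passed at day 3 (40.4% of all genes) and 11 at day 7 (25.3%). Another run left out 3 libraries together, day 3 replicate 3, day 7 replicate 2 and day 14 replicate 1. Its counts were 11 at day 3 (22.2% of all genes) and 8 at day 7 (19.6%). It called 1 at day 14 (2.74%) and 5 for day 14 against day 3 (3.64%). With lens and corneal covariates 4 passed at day 7 (9.4% of all genes), and with no filter 1 at day 7 (2.14%) and 2 in the Rag2 comparison (1.56%). Leaving out 1 library gave 2 to 4 at day 3, 1 to 5 at day 7, 0 to 5 for day 14 against day 3 and 0 to 1 between the Rag2 genotypes. For these runs and the replicate block, the share of all genes is not given. The exception, given above, is day 14 against day 3 without day 14 replicate 1. Same-numbered libraries did not deviate together throughout (correlations from -0.51 to 0.47 over the pairs of the 6 comparisons). The labels do not say whether the numbers pair libraries, and these correlations cannot settle it, so the main fit used no pairing. With a replicate block 4, 3, 0, 0, 0 and 0 members were called in the 6 comparisons, in the order above. Timp2 then did not pass between the Rag2 genotypes (edgeR adjusted p = 0.0807). The Mmp12 difference between the Rag2 genotypes turned to 0.0064 with the replicate block, and ranged from -0.44 to 0.58 in the runs without 1 library (0.0532 without Rag2 gc KO replicate 2, 0.58 without Rag2 KO replicate 3); it passed in none. Mmp3 at day 3 was lost with no filter, with the covariates (edgeR adjusted p = 0.402) and without the 3 libraries (0.0779). The lens covariate cannot be separated from day 3, and the cause was not tested. The order by FPKM without day 3 replicate 3 was added after seeing the data. Of the single-gene values under alternatives, 195 kept direction and side of the threshold, 31 lost it, 12 gained it and 3 turned. On simulated counts, 47% of log2 changes of 1 were recovered at day 3 and 74% in the Rag2 comparison, and collagenases were near 0.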
